A study of Rattus norvegicus with 24 samples.

Results

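The aminoacyl-tRNA synthetase genes of rat liver were described across diet and feeding time. Members were the 35 genes on a list of the family, 19 cytosolic (symbols ending in 1, with Farsa and Farsb) and 16 mitochondrial (symbols ending in 2), and a member was measured where a probe set of the array was paired with its symbol and no other. On that rule 33 of the 35 were measured, out of 17245 genes in all. These were all 19 cytosolic and 14 of the 16 mitochondrial members, and Cars2 and Iars2 were not analysed here. Liver RNA came from 24 male Wistar rats, 1 array each, in 4 groups of 6 animals: 5% protein for 4 weeks, 20% protein for 4 weeks, 5% protein for 1 week and 20% protein for 1 week. Wistar is an outbred laboratory strain, and no genotype or other agent was named for any group. The percentages are those of the sample titles, while codes in the descriptions hold 4 and 18 in the places of 5 and 20.

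An aminoacyl-tRNA synthetase joins an amino acid to the tRNA that carries it to the ribosome, and with few exceptions each amino acid has its own enzyme. The cytosolic enzymes serve translation of nuclear genes and the mitochondrial ones, also coded in the nucleus and imported, serve the few proteins that mitochondria make themselves. When an amino acid runs short, uncharged tRNA activates the kinase GCN2, which favours translation of the transcription factor ATF4, and in cultured mammalian cells ATF4 is known to bind near many cytosolic synthetase genes. Gars1 and Kars1 each code for the cytosolic and the mitochondrial enzyme of their amino acid, and were counted as cytosolic here because of their symbols.

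The element that ATF4 binds with its partners, the C/EBP-ATF response element, has the core TGATGCAA, which reads TTGCATCA on the other strand. RefSeq promoter windows on the GRCr8 assembly, from 250 bases before to 50 bases after an annotated start, were found for 30 of the 33 measured members by gene ID. This core lay in 7 of the 17 cytosolic windows (41.2%), in 0 of the 13 mitochondrial windows, and in 266 of all 33469 rat windows (0.795%), both strands searched. The 7 matches are printed because 0 mitochondrial windows held one, each on the strand of its gene, 5′ to 3′, with the match in capitals and 6 flanking bases (fewer at a window's edge).
Aars1: tgagcaTTGCATCAgccgag
Cars1: ccgcggTTGCATCAgattct
Iars1: tcagtaTTGCATCAcctcca
Mars1: ttccggTTGCATCAgcgtgg
Nars1: gtgatcTGATGCAAcgcttc
Tars1: gtcccgTTGCATCAgctggt
Yars1: ctcagcTGATGCAAcctg
The first base of the match stood at -112 in Aars1, -27 in Tars1, -24 in Iars1, -17 in Mars1, -14 in Nars1, 18 in Cars1 and 39 in Yars1, counted from 1 at the annotated start with no position 0. The whole window is given for Mars1, the methionyl enzyme, where the match lies close to the start, and for Aars1, the alanyl enzyme, where it lies farthest from it and a second match to the looser form TGATGNAA follows the start. The Mars1 window is chr7:65023704-65024003 on the minus strand and the Aars1 window is chr19:55908232-55908531 on the plus strand.
Mars1: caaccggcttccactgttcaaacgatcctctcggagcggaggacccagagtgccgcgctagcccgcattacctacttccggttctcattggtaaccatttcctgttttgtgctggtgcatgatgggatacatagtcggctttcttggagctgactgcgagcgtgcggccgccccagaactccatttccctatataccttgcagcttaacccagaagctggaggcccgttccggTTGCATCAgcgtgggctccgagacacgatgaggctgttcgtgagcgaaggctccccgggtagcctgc
Aars1: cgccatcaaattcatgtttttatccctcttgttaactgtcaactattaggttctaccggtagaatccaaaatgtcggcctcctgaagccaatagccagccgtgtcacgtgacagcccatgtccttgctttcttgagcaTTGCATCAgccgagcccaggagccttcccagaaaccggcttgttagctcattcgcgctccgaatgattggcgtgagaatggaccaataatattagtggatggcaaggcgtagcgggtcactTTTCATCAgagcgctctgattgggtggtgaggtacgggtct
The looser form TGATGNAA, which includes TGATGCAA, was in the same 7 cytosolic windows and in 0 mitochondrial windows, against 3.98% of all windows. The E-box CACGTG, a site of the MYC family among others, was in 5 of 17 cytosolic (29.4%), 1 of 13 mitochondrial (7.69%) and 6.42% of all windows. Among the pathway lists used below it was in 36.4% of RNA polymerase III, 35.3% of tRNA modification and 21.4% of amino acid response windows. The other pathway lists had 0. The core GCATGCGC of nuclear respiratory factor 1, a regulator of nuclear genes for mitochondria, was in 0 cytosolic windows, 2 of 13 mitochondrial ones (15.4%, Vars2 and Wars2) and 2.47% of all. A match describes these letters only, and the window table holds several windows for some genes and windows of non-coding genes.

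The liver label was checked first. The 9 measured hepatocyte markers were high in every animal, from a lowest of 10.99 log2 intensity (Tat, tyrosine aminotransferase) to a highest of 13.87 (Alb, serum albumin). Array medians ran from 42.4 to 45.5 on the linear intensity scale, arrays of 1 group correlated at 0.984 to 0.995, and the SE of a diet contrast had a median of 0.10 over all genes. A gene was called at an adjusted p below 0.05 in limma over all 17245 genes, and differences below are 5% minus 20% protein in log2 intensity, with SE, unless another contrast is named. Levels of different synthetase genes come from different probes and were not set against each other as amounts of RNA. The animal numbers in the labels fall in 4 runs (22 to 32 and 59 to 73 at 4 weeks, 49 to 54 and 74 to 79 at 1 week), and what a run stands for is not given. In the 20% groups the cytosolic members separated by run, so that values within runs are given below beside the pooled ones.

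At 4 weeks the synthetase genes were higher in the livers of rats on 5% protein in both compartments. Of the 19 cytosolic members 16 rose and 0 fell, with a median difference of 0.68, against 2308 of 17245 genes that rose (13.4%) and a median of -0.01 over all genes. Of the 14 mitochondrial members 7 rose and 0 fell, with a median of 0.31, and all 14 differences were positive. In bulk liver, fewer cells of a type and less RNA per cell cannot be told apart. The animals on 5% protein lay wholly above those on 20% in 10 cytosolic members (Cars1, Eprs1, Gars1, Kars1, Lars1, Mars1, Rars1, Sars1, Vars1, Yars1) and 4 mitochondrial ones (Ears2, Sars2, Tars2, Yars2), where 6.55% of all genes did.

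**Figure D1:**
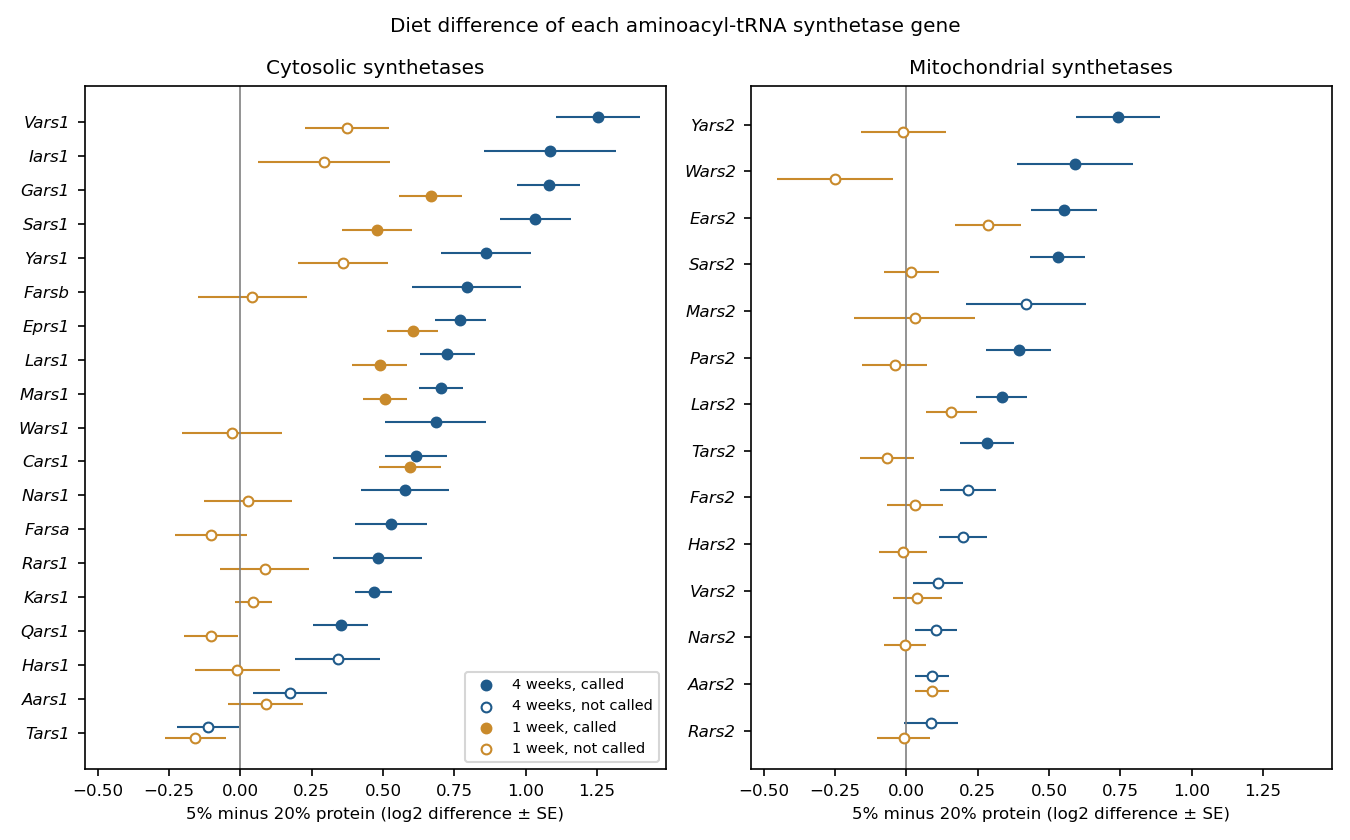
Diet difference (5% minus 20% protein, log2, horizontal axis) of each of the 19 cytosolic (left) and 14 mitochondrial (right) synthetase genes at 4 weeks (blue) and 1 week (ochre), with bars of 1 SE and filled points for called genes. At 4 weeks 16 cytosolic and 7 mitochondrial points are filled, all to the right of 0, and at 1 week 6 cytosolic and 0 mitochondrial points are.

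The smallest p values among cytosolic members at 4 weeks belonged to the glycyl, methionyl, bifunctional glutamyl-prolyl and valyl enzymes. Gars1 (probe set 10862666) had a lowest, median and highest level of 11.25, 11.40 and 11.60 log2 intensity on 5% protein, against 10.09, 10.39 and 10.55 on 20%. The gap between the diets was wider than the range within either, with a difference of 1.08 ± 0.11 (adjusted p = 1.1e-07, limma). Mars1 (probe set 10903013) had 9.65, 9.81 and 9.97 on 5% protein, against 9.03, 9.08 and 9.30 on 20%. Its groups also did not overlap, and the difference was 0.70 ± 0.08 (adjusted p = 3.64e-07, limma). Eprs1 (probe set 10766521), whose protein charges 2 different tRNAs, had 11.18, 11.36 and 11.59 on 5% protein, against 10.37, 10.59 and 10.82 on 20%. Its difference was 0.77 ± 0.09 (adjusted p = 7.52e-07, limma), again with no animal of 1 diet inside the range of the other. Vars1 (probe set 10831267) showed the largest cytosolic difference, with 8.52, 8.88 and 9.38 on 5% protein, against 7.37, 7.59 and 8.07 on 20%. That difference was 1.25 ± 0.15 (adjusted p = 8.8e-07, limma).

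**Figure D2:**
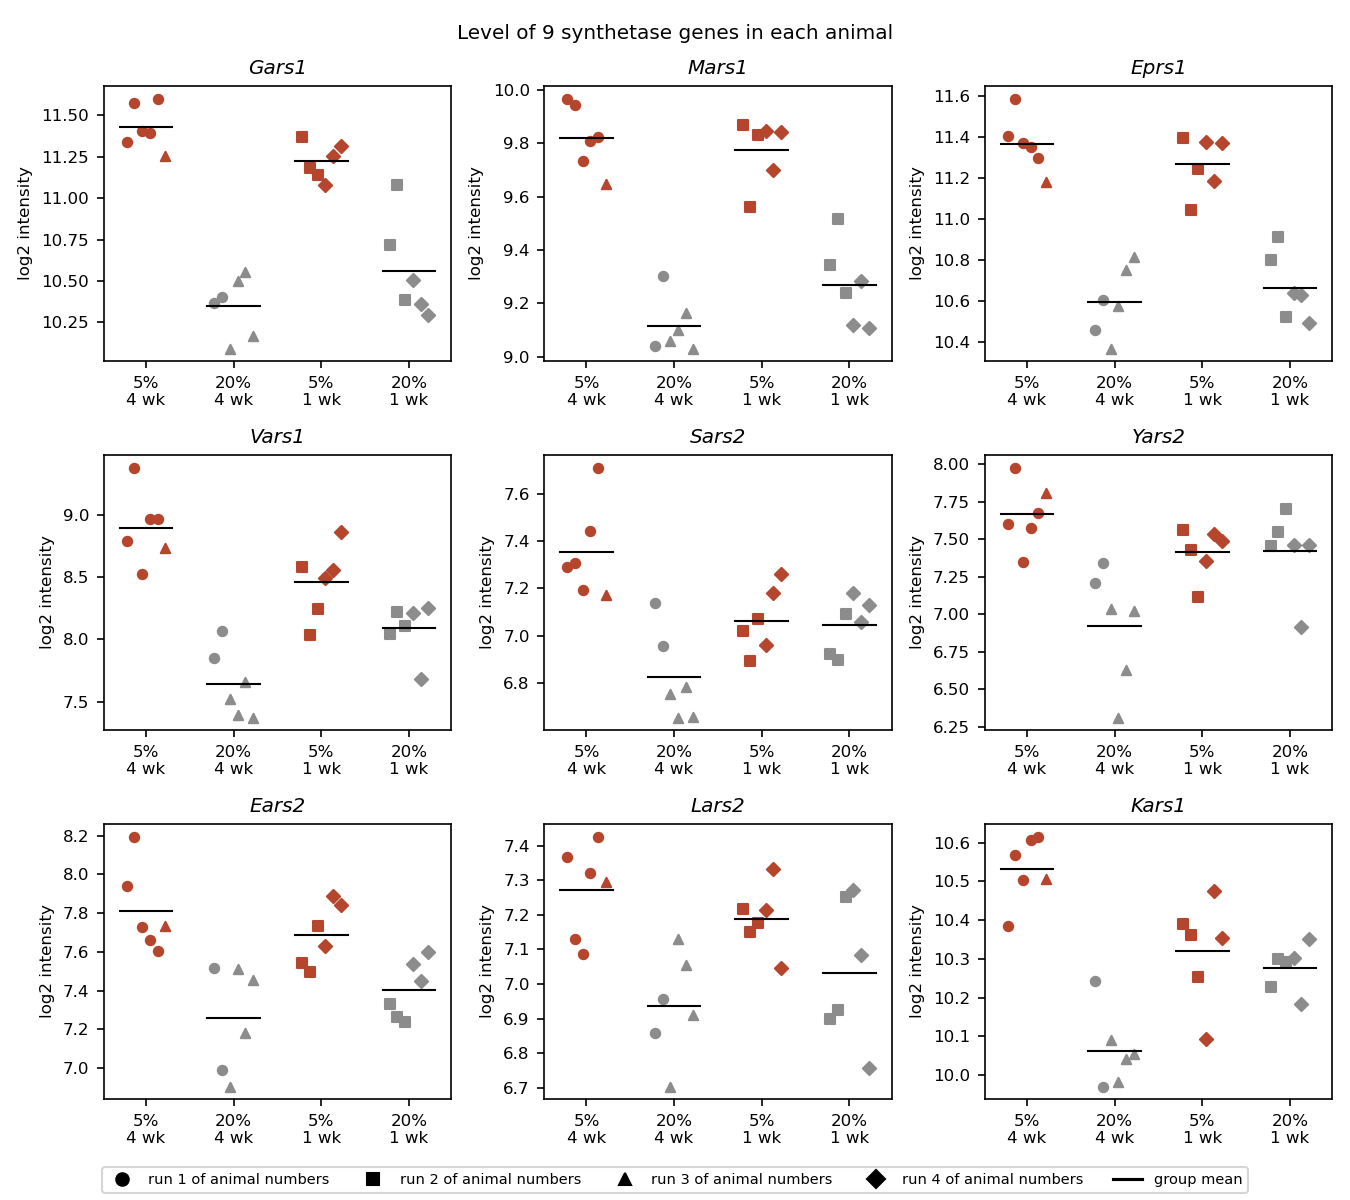
Log2 intensity of 9 synthetase genes in each animal, by diet and feeding time (6 animals a group), with red points for 5% protein, grey points for 20% protein, a black line at each group mean and the shape of a point giving the run of animal numbers. Gars1, Mars1 and Eprs1 lie apart by diet at both times, while Kars1, Vars1, Sars2 and Yars2 overlap at 1 week and lie apart at 4 weeks.

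The other called cytosolic members differed by 0.35 to 1.08 at 4 weeks. The upper end held Iars1, the isoleucyl enzyme (1.08 ± 0.23), Sars1, the seryl enzyme (1.03 ± 0.12), and Yars1, the tyrosyl enzyme (0.86 ± 0.16). Both subunits of the phenylalanyl enzyme rose, Farsb by 0.79 ± 0.19 and Farsa by 0.53 ± 0.13. Lars1, the leucyl enzyme that also senses leucine for the kinase mTORC1 (0.72 ± 0.10), Wars1, the tryptophanyl enzyme (0.68 ± 0.18), Cars1, the cysteinyl enzyme (0.62 ± 0.11), and Nars1, the asparaginyl enzyme (0.58 ± 0.16), lay between. Rars1 for arginine (0.48 ± 0.16), Kars1 for lysine (0.47 ± 0.07) and Qars1 for glutamine (0.35 ± 0.10) had the smallest called differences, and the call of Rars1 was lost without any 1 of animals 23 on 5% protein or 72 and 73 on 20% (adjusted p 0.0527 to 0.0645, limma). The 3 remaining cytosolic members did not pass the test at 4 weeks. Hars1, the histidyl enzyme, differed by 0.34 (adjusted p = 0.0973, limma), Aars1 by 0.17 (adjusted p = 0.377, limma) and Tars1, the threonyl enzyme, by -0.11 (adjusted p = 0.509, limma). Tars1 was the only member of either compartment with a negative value at 4 weeks, with 9.47, 9.67 and 9.80 as lowest, median and highest on 5% protein, against 9.39, 9.82 and 9.93 on 20%.

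Among mitochondrial members at 4 weeks, the seryl enzyme Sars2 (probe set 10705571) had the smallest p. Its lowest, median and highest levels were 7.17, 7.30 and 7.71 on 5% protein, against 6.65, 6.77 and 7.14 on 20%, a difference of 0.53 ± 0.10 (adjusted p = 0.000181, limma). The groups did not overlap, with the highest animal on 20% just under the lowest on 5%. Yars2 (probe set 10752592), the tyrosyl enzyme, had the largest mitochondrial difference, with 7.35, 7.64 and 7.98 on 5% protein, against 6.31, 7.03 and 7.34 on 20%. This came to 0.74 ± 0.15 (adjusted p = 0.000516, limma), and the wide range of the 20% animals reached almost to the lowest animal on 5%. Ears2 (probe set 10729812), the glutamyl enzyme, had 7.60, 7.73 and 8.20 on 5% protein, against 6.91, 7.32 and 7.52 on 20%, and differed by 0.55 ± 0.12 (adjusted p = 0.000858, limma). It was the only member with a second probe set, whose difference was 0.60. Lars2 (probe set 10914550), the leucyl enzyme, had 7.09, 7.31 and 7.43 on 5% protein, against 6.70, 6.93 and 7.13 on 20%, so that the groups overlapped slightly, with a difference of 0.33 ± 0.09 (adjusted p = 0.0067, limma). Wars2 (0.59 ± 0.20), Pars2 (0.39 ± 0.11) and Tars2 (0.28 ± 0.09), for tryptophan, proline and threonine, also rose. The calls of 2 of these were unstable, and both were lost with quantile normalization. That of Tars2 was lost without any 1 of animals 23 and 32 on 5% protein or 29 and 63 on 20% (adjusted p 0.0557 to 0.0642, limma), and that of Wars2 without any 1 of 32 and 59 on 5% or 30, 67, 72 and 73 on 20% (adjusted p 0.0582 to 0.102, limma). The 7 others ranged from 0.09 (Rars2, Aars2) to 0.42 (Mars2, adjusted p = 0.16, limma).

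At 1 week 6 cytosolic members rose on 5% protein and 0 fell, against 321 genes that rose (1.86%). They were Gars1 (0.67 ± 0.11), Eprs1 (0.60 ± 0.09), Cars1 (0.59 ± 0.11), Mars1 (0.51 ± 0.08), Lars1 (0.49 ± 0.10) and Sars1 (0.48 ± 0.12), and all 6 were also among the 16 called at 4 weeks. The cytosolic median was 0.09, against -0.01 over all genes. Of the 14 mitochondrial members 0 were called, with a median of 0.01 and 7 positive values, and 1 had an unadjusted p under 0.05. Eprs1 had the smallest p, with 11.05, 11.31 and 11.39 as lowest, median and highest on 5% protein, against 10.49, 10.63 and 10.91 on 20% (adjusted p = 0.000308, limma). Mars1 followed with 9.56, 9.84 and 9.87 on 5% protein, against 9.11, 9.26 and 9.52 on 20% (adjusted p = 0.000407, limma). In both genes every animal on 5% protein lay above every animal on 20%, as in Cars1 and Gars1, and 1.2% of all genes did so. Gars1 had 11.08, 11.22 and 11.37 on 5% protein, against 10.29, 10.45 and 11.08 on 20%, where 1 animal on 20% came level with the lowest on 5%. Vars1 (0.37, adjusted p = 0.166, limma) and Yars1 (0.36, adjusted p = 0.219, limma) did not pass the test at 1 week. The call of Sars1 was lost without any 1 of animals 49, 74, 75 and 76 on 5% protein or 77 and 79 on 20% (0.42 to 0.47, adjusted p 0.0558 to 0.0684, limma).

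The result at 1 week depended on the run of animal numbers. In the fourth run (3 animals on each diet) 10 cytosolic members rose and 0 fell, with a median of 0.55, against 4.04% of all genes that rose. In the second run (also 3 on each diet) 4 rose (Cars1, Eprs1, Gars1, Mars1) and 3 fell (Farsa, Hars1, Rars1), with a median of -0.26, against 2.86% of all genes that rose and 4.71% that fell. Eprs1, Gars1 and Mars1 were called higher in both runs. The difference between the runs was itself called in 8 of the 19, all with the larger diet difference in the fourth run (Aars1, Farsa, Farsb, Hars1, Iars1, Nars1, Rars1, Sars1), a contrast called in that direction in 4.76% of all genes. The mitochondrial members gave 0 calls in either run, with medians of 0.09 in the fourth and 0.06 in the second and with 2 and 3 unadjusted p under 0.05 (limma), and Mars2 alone among them was called between runs.

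**Figure D3:**
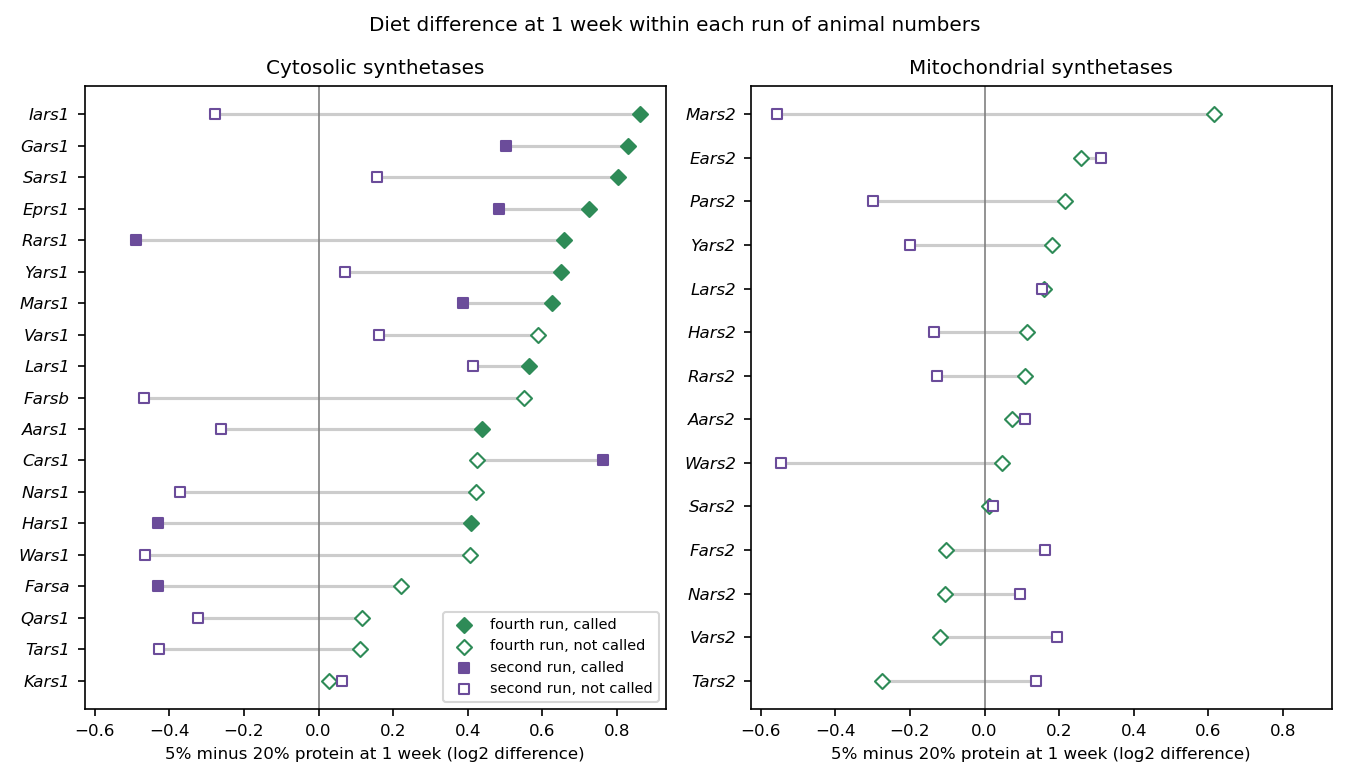
Diet difference at 1 week (5% minus 20% protein, log2) of each cytosolic (left) and mitochondrial (right) member within the fourth run (green diamonds) and the second run (purple squares) of animal numbers, with filled symbols for called genes and a grey line joining the 2 values. In the fourth run all 19 cytosolic values are above 0, and in the second run 9 are.

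The animals on 20% protein differed between the runs. Set against their second-run fellows, the fourth-run animals on 20% protein at 1 week were lower in 7 cytosolic members, against 6.53% of all genes, and higher in 2 mitochondrial ones (Fars2, Tars2), against 4.3% of all genes. The same contrast on 5% protein called 0 of 33 (limma, with 3 unadjusted p under 0.05 in each compartment), where it called 0.783% of all genes, so the absence of calls says little about the members. The cytosolic median of that contrast was 0.17 on 5% protein, with 14 of 19 values positive, and -0.37 on 20%. The mean of the 19 cytosolic members in an animal, each member centred on its mean over the 24 animals, was -0.30, -0.32 and -0.28 in the fourth-run animals on 20% protein, against -0.07, 0.09 and 0.21 in the second-run ones. On 5% protein it was 0.11, 0.19 and 0.29 in the fourth-run animals, against -0.13, 0.02 and 0.19 in the second-run ones. At 4 weeks the 4 third-run animals on 20% protein had -0.46, -0.46, -0.44 and -0.43, against -0.11 and -0.06 in the 2 first-run ones. At 1 week the array positions also followed diet: the wells of the 5% animals lay in other plate rows than those of the 20% animals, and row and diet cannot be told apart.

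**Figure D4:**
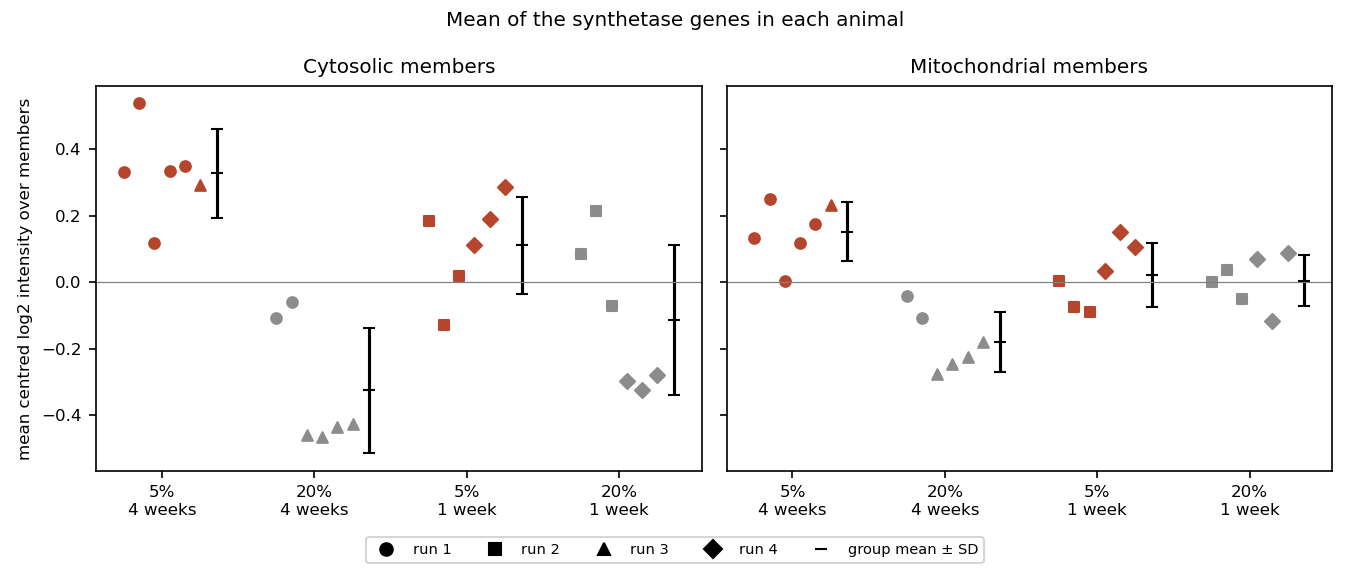
Mean centred log2 intensity over the 19 cytosolic (left) and 14 mitochondrial (right) members in each animal, by diet and feeding time, with red points for 5% protein, grey points for 20% protein, point shapes for the run of animal numbers and a bar at the group mean ± SD (6 animals). The 5% and 20% animals lie apart at 4 weeks in both panels, and the cytosolic means of the 20% animals form 2 sets by run at each time.

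At 4 weeks the members called within a run were higher on 5% protein in each run. The third run (1 animal on 5% and 4 on 20%) had 15 cytosolic and 4 mitochondrial members higher and 0 lower, with medians of 0.71 and 0.37, against 6.83% of all genes that rose. The first run (5 on 5% and 2 on 20%) had 9 cytosolic and 3 mitochondrial members higher and 0 lower, with medians of 0.43 and 0.16, against 8.32% that rose. In the first run Aars1 (-0.14), Tars1 (-0.23) and Mars2 (-0.06) were below 0 and not called, and in the third Aars1 was at 0.40 and Tars1 at -0.04, not called, and Mars2 rose by 1.20 ± 0.29. The lone third-run animal on 5% protein was taken to vary like the other groups. No member was called for a difference between the runs (limma), where 5 of 19 cytosolic and 4 of 14 mitochondrial members had an unadjusted p under 0.05. That contrast called 0.029% of all genes, so 0 calls does not show that the runs were alike. With the runs used singly, the calls of Farsa, Farsb, Iars1, Nars1, Qars1, Wars1, Pars2, Yars2 and Wars2 at 4 weeks were lost in the first run and that of Ears2 in the third, while those of Rars1, Sars2 and Lars2 were lost in both, with differences of 0.45, 0.46 and 0.34 in the third run and 0.24, 0.34 and 0.36 in the first, beside 0.48, 0.53 and 0.33 in the pooled fit. Tars2 was lost in the third run. Most 5% animals came from the first run and most 20% animals from the third, so diet and run cannot be wholly told apart at 4 weeks. With run as a covariate, the 4-week calls of Farsa, Nars1, Rars1, Pars2 and Wars2 were lost.

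The diet difference was larger at 4 weeks than at 1 week in 6 members. The contrast, diet difference at 4 weeks minus that at 1 week, was positive in all 19 cytosolic and 13 of 14 mitochondrial members, with medians of 0.42 and 0.24, against 0.00 over all genes. Kars1, Vars1, Farsa and Qars1 were called among cytosolic members and Sars2 and Yars2 among mitochondrial ones, against 611 genes called positive (3.54%). Kars1 (probe set 10811226) had the smallest p, at 0.42 ± 0.09 (adjusted p = 0.0111, limma). Its lowest, median and highest levels at 4 weeks were 10.39, 10.54 and 10.62 on 5% protein, against 9.97, 10.05 and 10.24 on 20%. At 1 week they were 10.09, 10.36 and 10.48 on 5% protein, against 10.18, 10.30 and 10.35 on 20%, so that the diets lay apart at 4 weeks and overlapped at 1 week. Vars1 gave 0.88 ± 0.21 (adjusted p = 0.0167, limma), Farsa 0.63 ± 0.18 (adjusted p = 0.0375, limma) and Qars1 0.45 ± 0.14 (adjusted p = 0.0483, limma). Sars2 gave 0.51 ± 0.14 (adjusted p = 0.0277, limma), with 6.89, 7.04 and 7.26 on 5% protein at 1 week, against 6.90, 7.08 and 7.18 on 20%, where the ranges almost coincided. Yars2 gave 0.75 ± 0.21 (adjusted p = 0.0352, limma). The calls of Farsa, Qars1 and Yars2 were each lost without any 1 of 14 to 16 of the 24 animals, and that of Sars2 without any 1 of animals 31 or 50 on 5% protein or 67 or 73 on 20% (adjusted p up to 0.0876 over these, limma). With run as a covariate, 1 cytosolic and 0 mitochondrial members were called, and leaving out the 20% animals of 1 run at 1 week gave 13 cytosolic calls without the fourth run and 1 without the second. The share of all genes called for this contrast under these settings is not given. How far these counts follow a change over all genes therefore cannot be told.

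Within a diet, time alone called few members. On 5% protein 3 cytosolic members were higher at 4 weeks than at 1 week, against 4.15% of all genes, namely Sars1 (0.46 ± 0.12, adjusted p = 0.0237, limma), Kars1 (0.21 ± 0.07, adjusted p = 0.0478, limma) and Qars1 (0.30 ± 0.10, adjusted p = 0.0499, limma). The medians were 0.21 over cytosolic and 0.10 over mitochondrial members, and 0 mitochondrial members were called, with 3 unadjusted p under 0.05. On 20% protein 0 of 33 members were called in either direction, against 2.52% of all genes, with 8 cytosolic and 2 mitochondrial unadjusted p under 0.05 (limma). There the medians were -0.21 and -0.14, and 31 of the 33 values were negative. The 3 calls on 5% protein fell to 0 with run as a covariate, and the 4-week and 1-week animals of a diet come from separate runs of numbers throughout, so that run and time cannot be told apart.

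The 2 compartments were set side by side in each animal. At 4 weeks the cytosolic mean was 0.33 ± 0.13 on 5% protein and -0.33 ± 0.19 on 20%, and the mitochondrial mean was 0.15 ± 0.09 on 5% and -0.18 ± 0.09 on 20% (SD, n = 6 each). At 1 week the cytosolic mean was 0.11 ± 0.15 on 5% protein and -0.11 ± 0.23 on 20%, and the mitochondrial mean 0.02 ± 0.10 on 5% and 0.00 ± 0.08 on 20% (SD, n = 6 each). The diet difference was thus larger by 0.32 in cytosolic than in mitochondrial members at 4 weeks and by 0.21 at 1 week, beside pooled SDs between animals of 0.10 and 0.18. These are descriptions with no test. Within runs the value was 0.41 in the fourth and -0.00155 in the second at 1 week. Mean levels on 20% protein at 4 weeks ran from 7.64 (Vars1) to 10.72 (Aars1) log2 intensity over cytosolic members. Over mitochondrial members they ran from 5.82 (Pars2) to 7.87 (Tars2). The part of this lower signal in the smaller mitochondrial difference was not tested.

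In all, 15 pairs of a cytosolic and a mitochondrial gene for 1 amino acid could be formed, with Eprs1 set against both Ears2 and Pars2, and Farsa and Farsb both against Fars2. The cytosolic gene had the larger diet difference in 14 of 15 pairs at 4 weeks and in 11 of 15 at 1 week. The cytosolic gene was ahead by more than 2 SE in 7 pairs at each time, and at 4 weeks the mitochondrial gene was so in 1 pair. The widest was between the valyl enzymes, where Vars1 differed by 1.25 and Vars2 by 0.11 at 4 weeks, and the gap of 1.14 ± 0.17 kept the diets wholly apart when taken in each animal. Threonine gave the opposite, with -0.11 for Tars1 and 0.28 for Tars2, a gap of -0.40 ± 0.08 that also kept the diets apart. Tryptophan and tyrosine gave nearly equal values in both compartments at 4 weeks, with gaps of 0.09 ± 0.15 and 0.12 ± 0.13. All pair values are pooled over runs. The excess of the cytosolic over the mitochondrial diet difference at 1 week was 0.41 in the fourth run and -0.00155 in the second. Pairs that share a gene are not independent of each other. The genes of a pair also differ in signal level, whose part in the gaps was not tested.

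**Figure D5:**
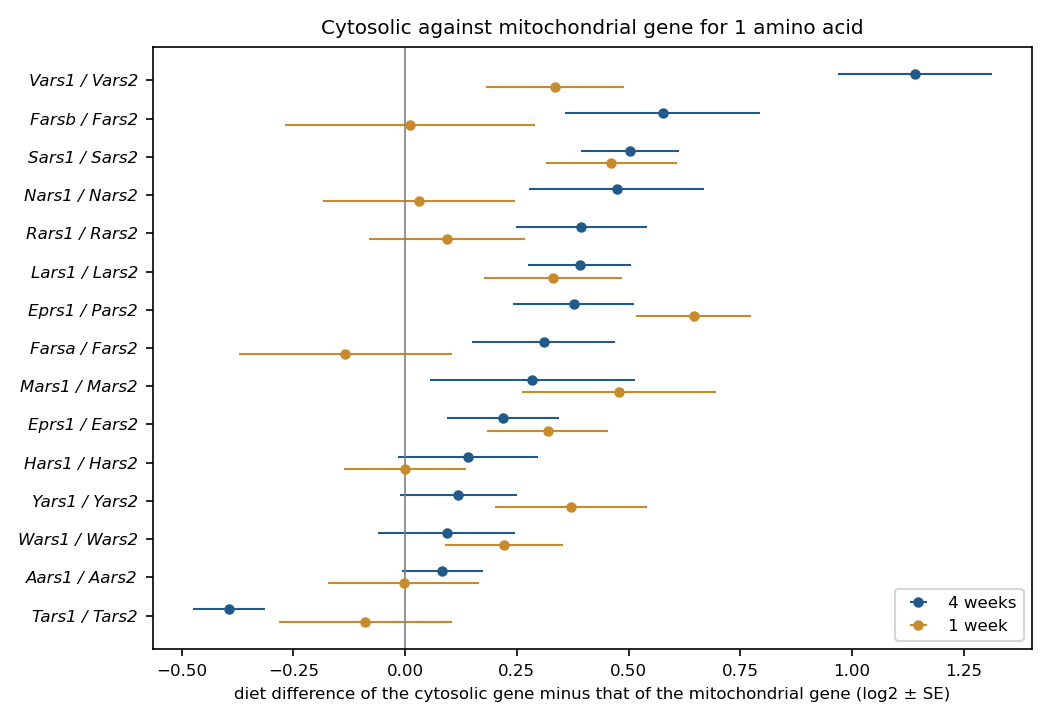
Diet difference (5% minus 20% protein, log2) of the cytosolic gene minus that of the mitochondrial gene for 15 pairs that charge 1 amino acid, at 4 weeks (blue) and 1 week (ochre), with bars of 1 SE over animals. Vars1 against Vars2 stands highest at 4 weeks at 1.14, and Tars1 against Tars2 is the single pair below 0 at that time, at -0.40, while 4 pairs lie below 0 at 1 week.

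Cytosolic members were also described by what the list did not use. The counts here stand beside 13.4% of all genes that rose at 4 weeks and 1.86% at 1 week. In mammals 7 of the 19 (Eprs1, Iars1, Kars1, Lars1, Mars1, Qars1, Rars1) belong to the multisynthetase complex, and all 7 rose at 4 weeks (median 0.70), as did 9 of the 12 others (median 0.65). At 1 week 3 of the 7 and 3 of the 12 rose. By catalytic class, 9 of 9 class I enzymes and 6 of 9 class II enzymes rose at 4 weeks, with medians of 0.70 and 0.53, the dual Eprs1 left out. Of the enzymes for dietary essential amino acids 9 of 11 rose (median 0.68), and of those for other amino acids 6 of 7 (median 0.62). By the core TGATGCAA, at 4 weeks 5 of the 7 cytosolic members with it rose (median 0.62), and 9 of the 10 without it (median 0.70). Cars1 and Mars1 carry the core and were called at both times, while Aars1 and Tars1 carry it and were called at neither. Eprs1, Lars1 and Sars1 were called at both times without it in their windows. No window was found for Gars1 and Rars1, which are in neither set. At 1 week 2 of the 7 with it and 3 of the 10 without it rose, with medians of 0.29 and 0.04, and no difference between the sets was tested.

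Genes that work beside the synthetases were taken from lists chosen with earlier results of these data known, and their counts stand beside 13.4% of all genes that rose at 4 weeks and 1.86% at 1 week. Of the 3 scaffold genes of the multisynthetase complex, Aimp2 (0.99 ± 0.24) and Eef1e1 (0.65 ± 0.19) rose at 4 weeks and Aimp1 was at 0.37 (adjusted p = 0.161, limma), and 0 were called at 1 week. Of 6 measured genes for editing and recycling of charged tRNA 3 rose at 4 weeks. Dtd1, which removes D-amino acids from tRNA, led at 1.41 ± 0.10 (adjusted p = 8.08e-10, limma), and it had also risen at 1 week by 0.52 ± 0.10. Ptrh2, a peptidyl-tRNA hydrolase (0.41 ± 0.15), and Prorsd1, related to a prolyl-tRNA editing domain (0.38 ± 0.13), followed. Of 17 measured tRNA modification genes 14 rose at 4 weeks and 2 at 1 week (Trit1 and Trmu). Examples at 4 weeks were Trmt6, part of a methyltransferase of adenosine (1.34 ± 0.21), Qtrt1, part of the enzyme that inserts queuine (1.14 ± 0.14), and Trmt1, a methyltransferase of guanosine (1.05 ± 0.12).

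RNA polymerase III, which transcribes tRNA genes, changed in part. Of 15 measured genes of the polymerase and its factors, 6 rose and 1 fell at 4 weeks, beside 13.4% and 12.4% of all genes, and 0 were called at 1 week. The subunit genes Polr3g (1.05 ± 0.22) and Polr3a (0.58 ± 0.12) and the factor gene Gtf3c3 (0.44 ± 0.09) rose, and Gtf3c1, another subunit of the same factor, fell by 0.29 on the log2 scale. In mitochondria, glutaminyl-tRNA is made by an amidotransferase and not by a synthetase. Of its genes and that of the formyltransferase, Qrsl1 rose at 4 weeks (0.58 ± 0.12) and the 3 others were not called. Of 7 measured mitochondrial translation factors 3 rose at 4 weeks (13.4% of all genes did), the elongation factors Tufm (0.40 ± 0.12) and Gfm2 (0.26 ± 0.08), the second acting in ribosome recycling, and the initiation factor Mtif2 (0.31 ± 0.09). The 1 measured gene of 5 listed for selenocysteine and for synthetases outside the list, Pstk, was at 0.33 (adjusted p = 0.137, limma).

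Known genes of the amino acid response rose at both times, 12 of 14 measured at 4 weeks and 8 of 14 at 1 week, with medians of 1.26 and 0.54, beside 13.4% and 1.86% of all genes that rose. Atf4 itself rose by 0.76 ± 0.11 at 4 weeks and 0.51 ± 0.11 at 1 week. Asns, asparagine synthetase, which makes an amino acid and charges no tRNA, rose by 3.44 ± 0.48 at 4 weeks and 1.88 ± 0.48 at 1 week. The pseudokinase gene Trib3 rose by 4.90 ± 0.41 and 2.95 ± 0.41, and Ddit3, which codes for the transcription factor CHOP, by 1.36 ± 0.20 and 0.97 ± 0.20, at 4 weeks and at 1 week in that order. Slc7a11, the cystine transporter, rose by 3.38 ± 0.37 at 4 weeks and 2.37 ± 0.37 at 1 week, and Nupr1, a stress-induced nuclear protein, by 1.28 ± 0.12 and 1.12 ± 0.12.

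Some markers of other liver cells were also called between the diets, where 12.4% of all genes fell and 13.4% rose at 4 weeks and 2.44% fell at 1 week. At 4 weeks 5 of 7 Kupffer cell markers fell (median -0.49), and the log2 of their summed intensity ran from 11.3 to 11.6 on 5% protein and from 11.9 to 12.6 on 20%. Of the other lists at 4 weeks, 2 of 5 erythroid markers (median -1.05), 2 of 7 stellate, 1 of 4 endothelial and 1 of 4 B and plasma cell markers fell, 2 of 5 cholangiocyte markers rose, and 0 of 6 T and NK cell and 0 of 6 neutrophil markers were called. Counts of 1 or 2 in lists this short are little above those shares in number of genes. Of the 5 erythroid markers, however, 0 had a positive difference at 4 weeks and 4 had an unadjusted p under 0.05 (limma). Of the 9 hepatocyte markers 4 fell at 4 weeks, with a median of -0.17. At 1 week 3 of 5 erythroid markers (median -1.41) and 1 of 4 B and plasma cell markers fell, and 0 markers of the other lists were called. Their part in the synthetase results was not tested.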

How the data were processed

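Liver RNA of 24 rats was hybridised to Affymetrix whole-transcript arrays, 1 colour and 1 array per animal, from labelled cDNA of total RNA without removal of ribosomal RNA, per the labels. The deposited values are probe set intensity made by the authors with RMA and given unlogged, per the labels and the submitters' processing notes, which give no version. RMA subtracts background, normalizes by quantiles and summarises probes, and leaves no detection call, so the number of arrays limits the precision and no detection limit is given. The log2 of the deposited intensity was taken here. Of 29214 probe sets 18644 paired with 1 symbol, 962 with several and 9608 with none, in a probe table that can be old. Only the first kind was used, and the probe set with the highest mean stood for a gene.

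The 4 group means were fitted in 1 model with limma 3.58.1 (lmFit, eBayes without trend or robust estimation) in R 4.3.3 with the data.table package (version 1.17.8), on residual degrees of freedom of 20 and prior ones of 3.95, and p values were adjusted by Benjamini and Hochberg over 17245 genes, two-sided. The fit was tested on simulated data with known changes, drawn independently for each gene and animal. That simulation held no runs or plate rows, so it says nothing of their part in the calls. Run values came from group and run means in 1 model. Titles give 1 or 4 weeks of feeding where the design text gives 4 only. Nothing says more of how animals were housed or drawn. The p values set a difference against the spread between these animals within groups, which in the main fit includes any difference between runs. No 2 arrays held identical values. Promoter windows were RefSeq's on GRCr8 and figures were drawn with matplotlib 3.10.9 in Python 3.11.15. The members and lists were chosen with earlier results of these data known. Genes with values for each group were the 4 members per compartment with the smallest p at 4 weeks, the 2 cytosolic ones at 1 week and the first of each compartment for diet by time, and of each pathway list up to 3 called genes in each direction at 4 weeks, with Atf4, Ddit3, Trib3 and Asns. Others were chosen after their values were seen. Protein sequences were not used here.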

Additional observations from a re-analysis of the deposited data

Results flagged for a closer look

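Of 132 sets of 6 animals (33 members in 4 groups), 8 held an animal far from the other 5, where chance flags about 1 in 20 sets. On 5% protein these were animal 26 at 4 weeks, lowest in Hars2 at 7.19 log2 intensity, and animal 49 at 1 week, highest in Lars1 at 9.70. On 20% protein at 4 weeks animal 63 was lowest in Tars1 at 9.39 and animal 29 highest in Wars2 at 8.43. On 20% protein at 1 week animal 78 was lowest in Vars1 at 7.68, in Hars2 at 7.30 and in Yars2 at 6.92, and animal 77 was highest in Nars2 at 7.29.

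The diet difference at 4 weeks was larger than that at 1 week, by limma's test of that difference, in 6 members. The excess was 0.88 in Vars1, 0.63 in Farsa, 0.45 in Qars1 and 0.42 in Kars1 among cytosolic members, and 0.75 in Yars2 and 0.51 in Sars2 among mitochondrial ones (log2).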

How the results depend on the processing

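No paired analysis was possible because each animal number belongs to a single group. The alternatives were other normalizations, probe set choices and filters, other limma settings, well position, run, each animal left out and, chosen after seeing the data, the 20% protein 1-week animals of the second or of the fourth run left out. At 4 weeks 9 of the 23 called members kept their call under every one of them, at 1 week 3 of 6, and for diet by time 1 of 6 (Kars1). The cause of each change below was not tested, beyond the fewer animals in a run used alone.

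Cytosolic calls at 4 weeks (16) were 9 in the first run alone, and mitochondrial calls (7) were 3 in the first and 4 in the third. With run as a covariate the 4-week calls of Farsa, Nars1, Rars1, Pars2 and Wars2 were lost. Quantile normalization lost those of Tars2 and Wars2, and the use of only the groups compared lost that of Wars2. Cytosolic calls at 1 week (6) were 10 in the fourth run alone, and mitochondrial calls (0) were 1, lower, without the second-run animals. For diet by time, cytosolic calls (4) were 1 with run as a covariate or without the second-run animals, 13 without the fourth-run animals and 2 to 7 without 1 animal, the highest without animal 26. The call of Farsa was lost without any 1 of animals 23, 31, 32, 49, 50, 54 and 74 on 5% protein or 51, 52, 53, 63, 67, 72 and 73 on 20%, that of Qars1 without 23, 31, 32, 49, 50, 54, 59 and 74 on 5% or 30, 51, 52, 67, 72, 73, 77 and 79 on 20%, and that of Yars2 without 23, 31, 32, 50, 54, 59 and 74 on 5% or 51, 52, 53, 67, 72, 73 and 79 on 20%. Mitochondrial calls (2) were 0 with run as a covariate, 1 with well row as a block and 0 to 4 without 1 animal, the highest without animal 29. For 4 weeks against 1 week on 5% protein, cytosolic calls (3) were 0 with run as a covariate, 1 with trend and robust estimation, well column as a covariate or the fourth-run animals left out, and 0 to 3 without 1 animal, with 0 without animal 23, 32 or 50. Mitochondrial calls (0) were 2 with the lowest 33.3% of genes left out, array weights, well row as a block or either run's animals left out, 1 with only the groups compared, and 0 to 2 without 1 animal. On 20% protein, cytosolic calls (0) were 1 with an offset of 16, 5 without the fourth-run animals and 0 to 1 without 1 animal, all lower. Mitochondrial calls there (0) were 1 with array weights, 2 without the second-run and 1 without the fourth-run animals, and 0 to 1 without 1 animal, also lower. For diet by time and for time within a diet, the share of all genes called under these settings is not given.

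The excess of the cytosolic over the mitochondrial diet difference at 4 weeks (0.32) was 0.21 in the first run alone and 0.30 to 0.36 without 1 animal. At 1 week (0.21) it was 0.41 in the fourth run, -0.00155 in the second, 0.40 without the second-run and 0.00826 without the fourth-run animals on 20% protein, and 0.16 to 0.26 without 1 animal. At 1 week Hars1 differed by 0.41 in the fourth run (adjusted p = 0.0454, limma) and by -0.43 in the second (adjusted p = 0.0395, limma). Rars1 differed by 0.66 in the fourth run (adjusted p = 0.00216, limma) and by -0.49 in the second (adjusted p = 0.0189, limma). Their pooled values were -0.01 for Hars1 and 0.08 for Rars1, and neither was called. Over all genes, 321 rose at 1 week, 168 with well row as a block and 503 without the fourth-run animals, and 2308 rose at 4 weeks, 1434 in the first run alone and 1178 in the third.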
